A study of Rattus norvegicus with 12 samples.

Results

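The genes described here are interleukins and interleukin receptors, outside the groups around IL-1, IL-18, IL-33, IL-6 and IL-11, in the bronchi of rats with lesions like those of obliterative bronchiolitis. They were chosen by name: every gene whose symbol begins with Il and a number in the probe annotation, leaving out Il1a, Il1b, Il1rn, Il1r1, Il1r2, Il1rl1, Il1rap, Il18, Il33, Il6, Il6r, Il6st and Il11. This gave 38 of the 14217 genes that have a probe set of their own, 19 of them receptor chains and 19 ligands, antagonists or binding proteins. Male Wistar rats (of the Wistar Han stock, by the study's methods) had inhaled 200 ppm 2,3-pentanedione (PD), a flavoring chemical, or filtered air for 2 weeks, and bronchial wall was cut from frozen sections of the lung with a laser. The RNA was amplified and hybridized to Affymetrix rat arrays, which read each gene through sets of short probes. Among the exposed rats, 3 arrays were of fibrotic bronchi (replicates 3, 7 and 9) and 3 of bronchi without fibrosis, called non-fibrotic (replicates 4, 8 and 10), and 6 arrays were of air-exposed control bronchi (replicates 1 to 6). Fibrotic specimens were polyps or plaques in the airway with the wall beneath them, whereas the other specimens were bronchi with their epithelium and wall. Non-fibrotic bronchi came from lungs of some of the same rats as fibrotic bronchi, but the labels do not tie specimens to rats. The p-values therefore measure the spread between specimens, and those between fibrotic and non-fibrotic bronchi take shared rats as separate.

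Interleukins are secreted proteins with which leukocytes, epithelium and stroma instruct each other. Most receptors described here are pairs or trios of chains of the class I and II cytokine receptor families, which signal through Janus kinases (JAKs) and STAT transcription factors, and one chain often serves several ligands. The receptors of the IL-17 family are built differently. In humans and mice they signal through the adaptor Act1 to NF-κB, and the shared chain IL-17RA pairs with IL-17RC to bind IL-17A and IL-17F or with IL-17RE to bind IL-17C, an epithelial cytokine. The type 2 interleukins IL-4, IL-5, IL-9 and IL-13 drive eosinophils, IgE and mucus in the airways.

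Levels are given as the log2 of the array signal of a gene's brightest probe set, with the SD over arrays, and they are not compared between genes. The background level was 6.52 on this scale, the highest of 36 values of bacterial transcripts that had not been added to the samples. Of the 38 genes, 9 lay above it on all 12 arrays and 8 lay under it on all 12 (Il2, Il4, Il5, Il5ra, Il10, Il13, Il17f and Il36b). The other 21 were above it on some arrays. Fold changes and adjusted p-values are from limma over all 31042 tested probe sets, and a gene was called at an adjusted p under 0.01.

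Several facts of the arrays bear on these genes. Mean log2 signals of 5 ciliated cell markers were 6.73 to 8.05 in fibrotic bronchi, 10.79 to 11.71 in non-fibrotic bronchi and 11.96 to 12.38 in controls. Those of 5 fibroblast markers were 12.85 to 13.31 in fibrotic bronchi, 11.05 to 12.04 in non-fibrotic bronchi and 10.17 to 11.998 in controls. Mean signals of 8 macrophage markers were 10.4 to 11.4 in fibrotic bronchi, 6.90 to 9.66 in non-fibrotic bronchi and 7.53 to 9.08 in controls. Labels of controls 3 to 6 carry a sample name, and those of controls 1 and 2 and of all exposed arrays do not. The mean log2 signal of the poly-A controls was 9.36 in fibrotic arrays, 10.8 in non-fibrotic arrays, 2.32 in controls 1 and 2 and 10.3 in controls 3 to 6. Gapdh gave more signal toward its 3′ end than toward its 5′ end in every set of arrays. The excess was a log2 of 1.87 in fibrotic and 2.19 in non-fibrotic arrays. It was 1.60 in controls 1 and 2 and 0.78 in controls 3 to 6. The part of this imbalance in the contrasts with controls, or where probe sets of a gene disagree, was not tested. In tissue of this kind, fewer cells of a type and less RNA per cell cannot be told apart.

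Between fibrotic bronchi and controls, Il17ra and Il24 rose and no gene of the 38 fell. These 2 calls are 5.26% of the 38 genes, while 9.39% of all probe sets were called (2.99% rose and 6.4% fell). Of all 14217 genes, each by its brightest probe set, 12.5% were called. The median log2 fold change was 0.62 for the 38 genes and 0.10 for all probe sets. A positive value was found for 29 of the 38 (76.3%, against 54.4% of all probe sets and 54.6% of all genes). This count includes 6 of the 8 genes under background on all arrays. At an adjusted p under 0.05 there were 7 calls, or 18.4% of the 38 against 17.9% of all probe sets and 22.5% of all genes. Il2rb, Il10rb and Il17b were then higher and Il17rc and Il17re lower beside the first pair. Without fibrotic replicate 9 the count at 0.01 was 1, and with controls 1 and 2 as the only controls, or with the form of the label as a fixed block, it was 0. With the form of the label as a random block, whose correlation within forms was estimated at 0.128, both calls remained.

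Between non-fibrotic bronchi and controls no gene of the 38 was called by limma, and the fit without moderated variances also called 0. By limma 0.522% of all probe sets and 0.619% of all genes were called. At an unadjusted p under 0.05 there were 11 genes, or 28.9%, against 26.4% of all probe sets. At an adjusted p under 0.05 there was 1, Il7, against 5.83% of all probe sets and 6.56% of all genes. The median log2 fold change was 0.05 for the genes and 0.09 for all probe sets. Between fibrotic and non-fibrotic bronchi, Il17ra was higher and Il17re lower, again 5.26% of the 38. Of all probe sets 3.82% were called (1.07% higher and 2.75% lower), and of all genes 5.30%. At an adjusted p under 0.05 there were 7 calls (18.4%, against 9.57% of all probe sets and 12.6% of all genes). The lists of genes below also hold 1 probe set per gene, so these shares of all genes apply to them too. Leaving out one array at a time gave 0 to 4 calls at 0.01, with 0 without non-fibrotic replicate 10 and 4 without non-fibrotic replicate 4. Groups whose arrays did not overlap were common. Between fibrotic bronchi and controls this held for 31.6% of the 38 genes and 23.6% of all probe sets. Between non-fibrotic bronchi and controls it held for 18.4% and 14.6%, and between fibrotic and non-fibrotic bronchi for 36.8% and 23.1%.

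**Figure D1:**
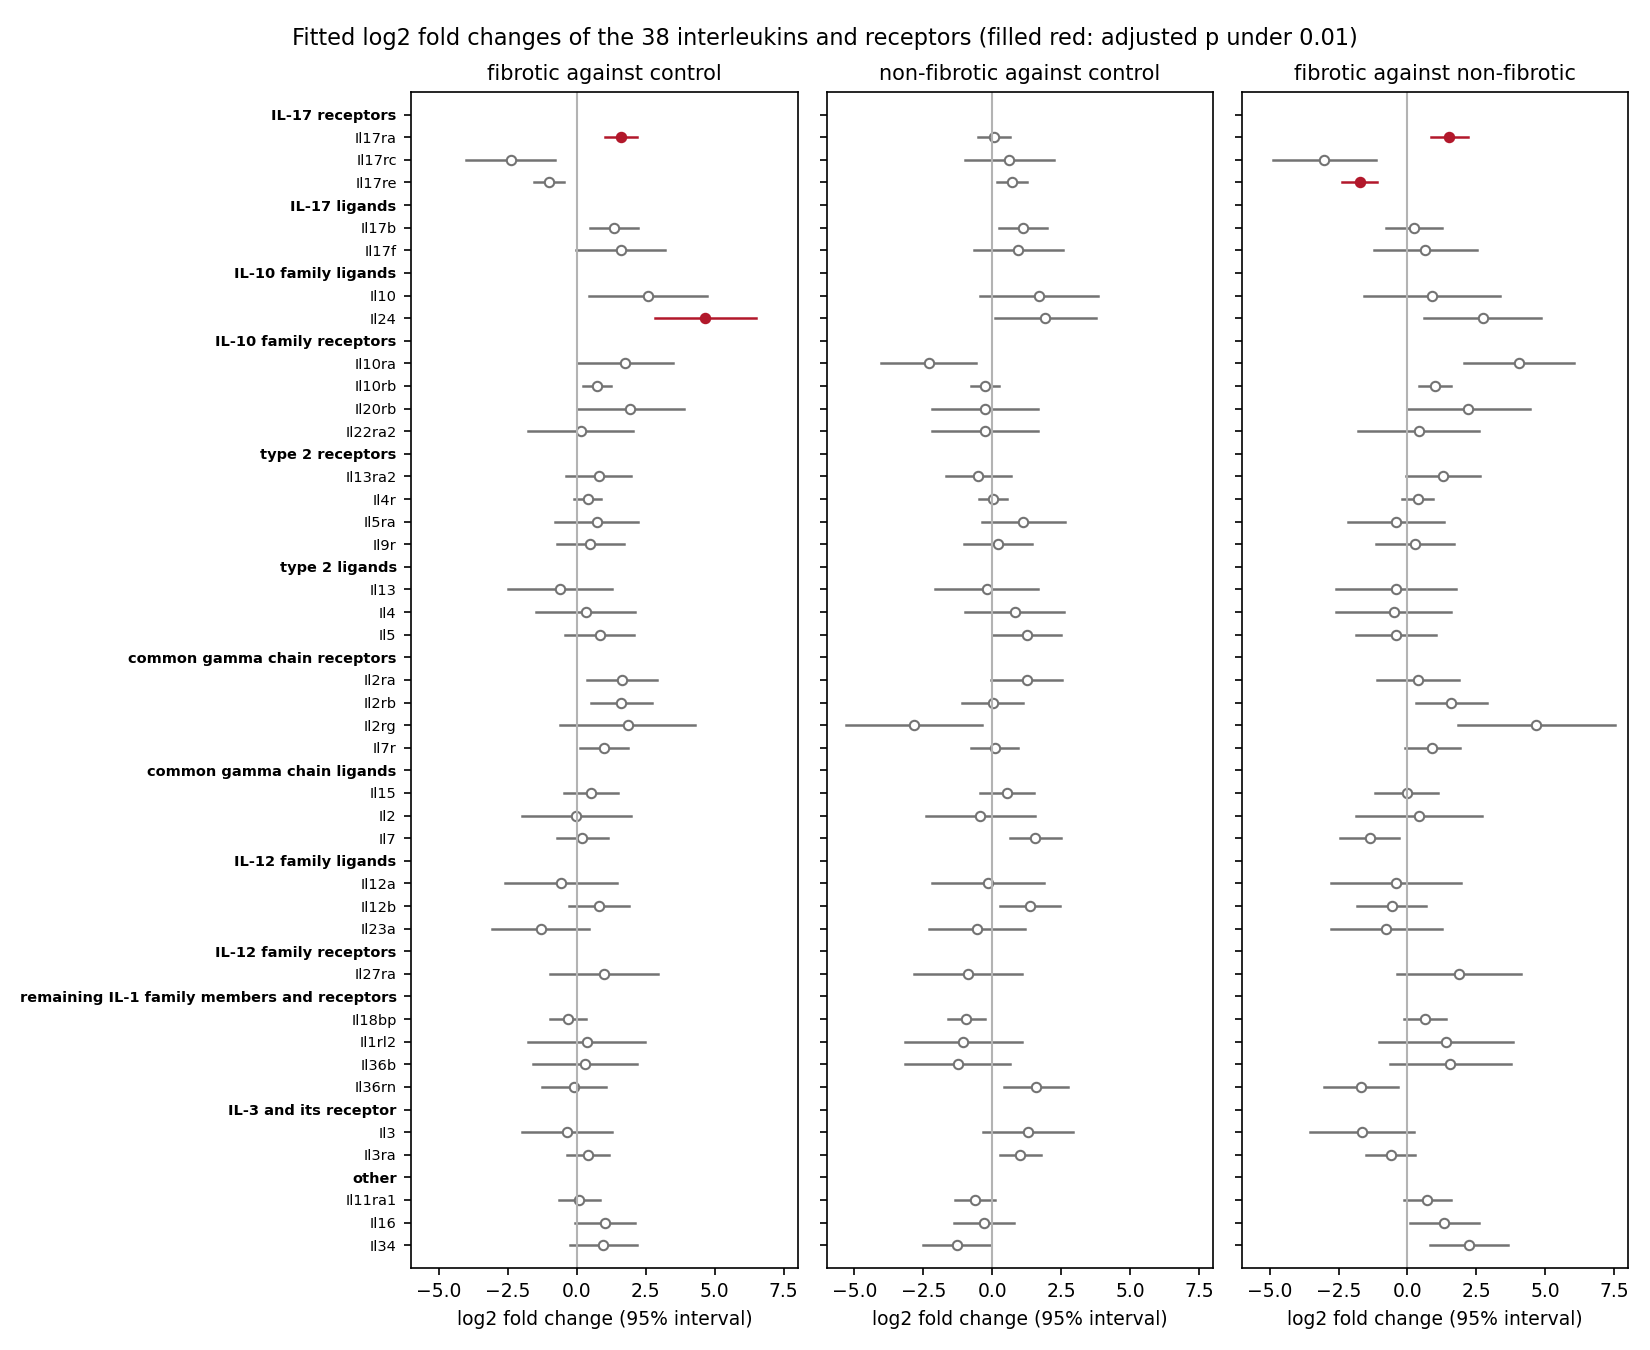
Fitted log2 fold changes (points) with 95% intervals (lines) of the 38 genes, grouped by family, in the contrasts of fibrotic bronchi with controls, of non-fibrotic bronchi with controls and of fibrotic with non-fibrotic bronchi. Filled red points have an adjusted p under 0.01: Il17ra and Il24 in the first contrast, none in the second, Il17ra and Il17re in the third.

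Of the IL-17 receptor chains, Il17ra rose in fibrotic bronchi, Il17re was lower than in non-fibrotic bronchi by one of its probe sets, and Il17rc was not called. Il17ra, the shared signaling chain, had log2 signals of 12.56, 12.67 and 12.40 in fibrotic bronchi and 11.50, 11.13 and 10.43 in non-fibrotic bronchi, and in controls the lowest was 10.29, the median 10.87 and the highest 11.51. All 3 fibrotic arrays lay above all 9 others, and non-fibrotic bronchi and controls overlapped. The means were 12.54 ± 0.14 in fibrotic bronchi (n = 3), 11.02 ± 0.55 in non-fibrotic bronchi (n = 3) and 10.95 ± 0.47 in controls (n = 6). Il17ra was 3.02-fold higher in fibrotic bronchi than in controls (log2 1.59, 95% interval 1.00 to 2.18, adjusted p = 0.00082) and 2.87-fold higher than in non-fibrotic bronchi (log2 1.52, adjusted p = 0.00731). Non-fibrotic bronchi and controls differed by a log2 of 0.07, with an interval of -0.52 to 0.66. Against controls 1 and 2 alone, the controls with the higher Il17ra signals, the log2 difference was 1.06 with an adjusted p of 0.08, or 0.0272 with the form of the label as a fixed block. With that form as a random block it was 1.45 with an adjusted p of 0.00254. The call against non-fibrotic bronchi was lost in 12 alternatives, with adjusted p-values of up to 0.0434 and a log2 difference of 1.22 or more.

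Il17re, the chain that pairs with IL-17RA for IL-17C and is known as an epithelial receptor, was lower in fibrotic than in non-fibrotic bronchi by its brighter probe set. Its log2 signals were 8.75, 9.14 and 8.45 in fibrotic bronchi and 10.14, 10.55 and 10.84 in non-fibrotic bronchi, and in controls the lowest was 9.47, the median 9.69 and the highest 10.26. All fibrotic arrays lay under all others, and the non-fibrotic arrays overlapped the upper end of the controls. Il17re was 3.31-fold lower in fibrotic than in non-fibrotic bronchi (log2 -1.73, interval -2.36 to -1.09, adjusted p = 0.00187). Against controls the log2 difference was -1.01 with an adjusted p of 0.0127, which misses the threshold. A second probe set annotated to Il17re, of a type that can also detect other transcripts, did not show the same pattern. It had log2 signals of 8.03, 8.04 and 6.39 in fibrotic bronchi and 6.70, 9.10 and 7.26 in non-fibrotic bronchi, and in controls the lowest was 8.10, the median 9.27 and the highest 9.47. By this set Il17re was lower in fibrotic bronchi than in controls (log2 -1.59, adjusted p = 0.0425), and the difference between fibrotic and non-fibrotic bronchi was -0.20 with an interval of -1.46 to 1.06. The lower level of Il17re relative to controls had the same sign in both probe sets, and the call relative to non-fibrotic bronchi rests on one of them.

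Il17rc, the partner of IL-17RA for IL-17A and IL-17F, lies next to Il17re on chromosome 4 in the RefSeq annotation of GRCr8, with 0 genes between them. Its log2 signals were 3.50, 4.02 and 4.40 in fibrotic bronchi, all under background. They were 7.11, 8.22 and 5.62 in non-fibrotic bronchi, and in controls the lowest was 3.82, the median 6.75 and the highest 7.38. The groups of fibrotic and non-fibrotic arrays did not overlap, and control 1 fell among the fibrotic arrays. The fitted log2 differences were -3.01 against non-fibrotic bronchi (adjusted p = 0.0411) and -2.39 against controls (adjusted p = 0.0394), neither called. With every fibrotic array under background, the mean of non-fibrotic bronchi bounds the difference at 1.38-fold or more, and none is given against controls, whose mean of 6.37 ± 1.28 lay under background too. With arrays under background set to that level, the log2 difference was -0.30 against controls and -0.76 against non-fibrotic bronchi. Without control 1 the fitted difference from controls was -2.90 with an adjusted p of 0.00307, and against controls 1 and 2 alone it was -1.23 with an adjusted p of 0.651.

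Within each array, the log2 signal of Il17ra minus that of the brighter Il17re probe set was 3.81, 3.53 and 3.95 in fibrotic bronchi, 1.37, 0.58 and -0.41 in non-fibrotic bronchi, and between 0.28 and 1.72 in controls. This difference does not depend on the scaling factor of an array, and it was computed after the values of both genes were seen. It was not computed for the dimmer Il17re probe set, by which fibrotic and non-fibrotic arrays overlapped. In fibrotic bronchi, ciliated and club cell markers were lower along with Il17re and the fitted values of Il17rc. All 5 ciliated cell markers were called lower against controls (6.4% of all probe sets were) and against non-fibrotic bronchi (2.75%). Of 3 club cell markers, 3 were called lower against controls and 2 against non-fibrotic bronchi. Their mean log2 signals were 6.28 to 8.02 in fibrotic bronchi, 10.32 to 11.67 in non-fibrotic bronchi and 12.46 to 14.45 in controls. Foxj1, the master regulator of ciliated cells, had means of 7.64 in fibrotic bronchi, 12.39 in non-fibrotic bronchi and 12.35 in controls. Between non-fibrotic bronchi and controls, 3 of the 5 ciliated cell markers were lower, with a median log2 fold change of -0.40. Of the 5, 1 was called there (20%, against 0.522% of all probe sets). Il17rc and the brighter Il17re probe set were higher there, by a log2 of 0.62 and 0.72, neither called. The dimmer Il17re probe set went the other way, with a log2 difference of -1.39 (adjusted p = 0.104), so no direction is given for Il17re there. Macrophage markers were higher in fibrotic bronchi along with Il17ra, with 4 of 8 called higher than in controls (2.99% of all probe sets were). The part of these cells in the changes of the receptors was not tested.

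**Figure D2:**
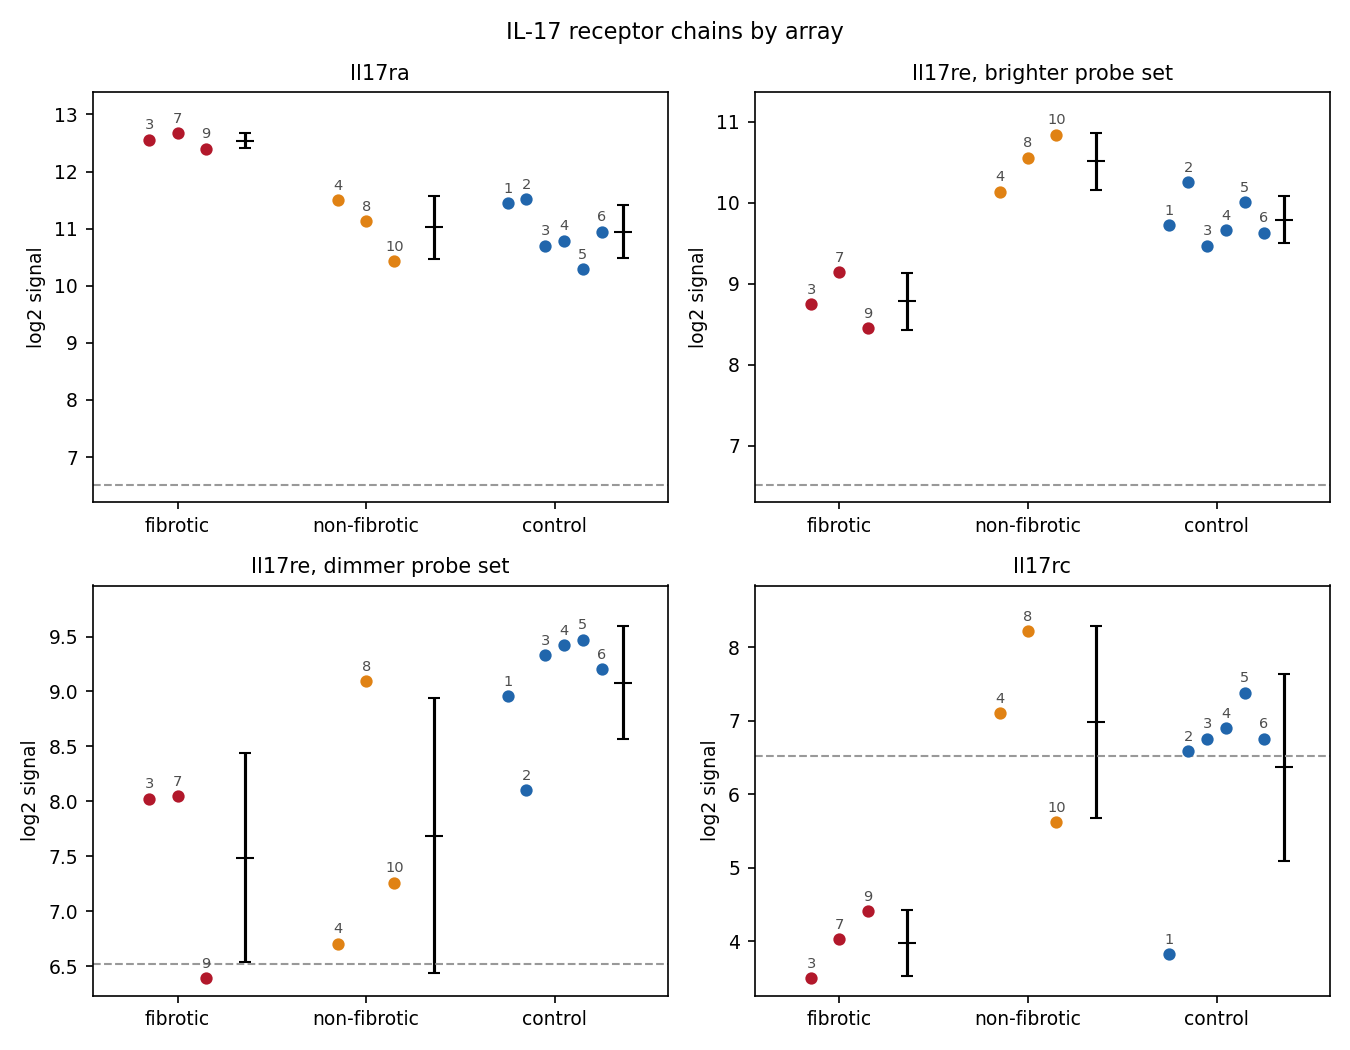
Log2 signals of Il17ra, both probe sets of Il17re, and Il17rc on each array (points, numbered by replicate) in fibrotic, non-fibrotic and control bronchi, with mean and SD beside each group and the background level of 6.52 as a dashed line. Fibrotic arrays lie above all others for Il17ra and under all others for the brighter Il17re probe set, not for the dimmer one, and under background for Il17rc.

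Ligands of the family were weaker. Il17b, which binds another receptor chain of the family, IL-17RB, averaged 7.84 ± 0.29 in fibrotic bronchi, 7.60 ± 0.49 in non-fibrotic bronchi and 6.50 ± 0.42 in controls. All exposed arrays lay above all controls, with log2 differences of 1.34 in fibrotic bronchi (adjusted p = 0.0329) and 1.11 in non-fibrotic bronchi (adjusted p = 0.106), neither called. Il17f lay under background on every array. Among 26 adaptors and target genes of IL-17, 1 rose and 1 fell in fibrotic bronchi against controls, or 7.69% against 9.39% of all probe sets. The fall was of Ccl20, the chemokine that draws IL-17-producing T cells, with a mean of 8.03 ± 0.69 in fibrotic bronchi and 11.23 ± 1.60 in controls (log2 -3.20, adjusted p = 0.00728). Ccl20 was also the 1 gene of the list called in non-fibrotic bronchi against controls (3.85%, against 0.522% of all probe sets), at a mean of 6.93 ± 1.11 (log2 -4.30, adjusted p = 0.00786). The rise was of the collagenase gene Mmp13, with 2 of 3 fibrotic arrays and all controls under background, and with these set to the background level its log2 difference was 0.15. Between fibrotic and non-fibrotic bronchi 1 gene of the list was called (3.85%, against 3.82% of all probe sets) and was higher, Tnfaip3, whose product A20 restrains NF-κB (log2 2.74, adjusted p = 0.00495). The list's median log2 fold change was 0.08 in fibrotic bronchi and -0.76 in non-fibrotic bronchi, each against controls.

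Il24 encodes a cytokine of the IL-10 family that acts on epithelium, and it is the ligand that rose. Its RefSeq promoter is shown because it is the 1 called gene of the 38 with an entry in the promoter table, which holds 26 of them. The 250 bases before the gene's start, chr13:44910761-44911010 on the minus strand of GRCr8, are given 5′ to 3′ with a match to TTCNNNGAA, the core pattern of STAT binding sites, in capitals.
Il24 promoter: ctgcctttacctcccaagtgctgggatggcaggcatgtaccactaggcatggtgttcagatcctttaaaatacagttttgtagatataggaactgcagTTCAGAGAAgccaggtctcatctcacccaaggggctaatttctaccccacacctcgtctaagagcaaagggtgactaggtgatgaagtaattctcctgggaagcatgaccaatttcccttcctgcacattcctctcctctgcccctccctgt
The match ends 143 bases before the start. This pattern, which reads the same on both strands, occurs in 7.67% of the 33469 promoters searched over the same length and in 2 of the 26 here (Il24 and Il36b). The AP-1 pattern TGANTCA was found in 0 places of the Il24 window, in 6.34% of all promoters and in Il15 and Il16. A match is a description of letters and not of a site in use.

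The log2 signals of Il24 were 8.51, 8.92 and 9.58 in fibrotic bronchi and 8.08, 4.91 and 5.85 in non-fibrotic bronchi. In controls the lowest was 2.20, the median 4.44 and the highest 6.14, so every control lay under background. Every fibrotic array was above background and above all others, and among the non-fibrotic arrays replicate 4 alone was above background. Il24 averaged 9.00 ± 0.54 in fibrotic bronchi (n = 3) and 4.35 ± 1.52 in controls (n = 6). It was at least 5.60-fold higher in fibrotic bronchi, taking controls at the background level (fitted log2 4.66, adjusted p = 0.00134). Against controls 1 and 2 alone the fitted log2 difference was 4.40 with an adjusted p of 0.0362, with the form of the label as a fixed block the adjusted p was 0.0261 and as a random block 0.00333, and without fibrotic replicate 9 it was 4.37 with an adjusted p of 0.0106. Between fibrotic and non-fibrotic bronchi the log2 difference was 2.73 with an interval of 0.61 to 4.84 and an adjusted p of 0.104.

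The receptor of IL-24 in humans and mice is built from IL-20RB with IL-20RA or IL-22RA1, and IL-20RB is the chain of these whose gene is among the 38. Il20rb had log2 signals of 7.81, 8.68 and 8.16 in fibrotic bronchi and 8.12, 6.94 and 2.99 in non-fibrotic bronchi, and in controls the lowest was 4.52, the median 6.27 and the highest 8.11. Fibrotic arrays overlapped control 2 and non-fibrotic 4, and the log2 difference from controls was 1.94 with an interval of 0.02 to 3.87 and an adjusted p of 0.154. Il10rb, the second chain of the receptors for IL-10, IL-22 and related cytokines, had log2 signals of 10.74, 10.91 and 10.44 in fibrotic bronchi and 9.99, 9.79 and 9.37 in non-fibrotic bronchi, and in controls the lowest was 9.45, the median 10.05 and the highest 10.23. Fibrotic arrays lay above all others, but the differences were small, at a log2 of 0.74 against controls (adjusted p = 0.0422) and 0.98 against non-fibrotic bronchi (adjusted p = 0.0332). Il22ra2, a soluble decoy for IL-22, overlapped in all groups, with log2 signals of 5.24 to 8.45 in fibrotic bronchi, 5.33 to 7.71 in non-fibrotic bronchi and 4.71 to 9.26 in controls. Il10 itself lay under background throughout, with 4 genes between it and Il24 on chromosome 13 in the same annotation, its relatives Il19 and Il20 among them.

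**Figure D3:**
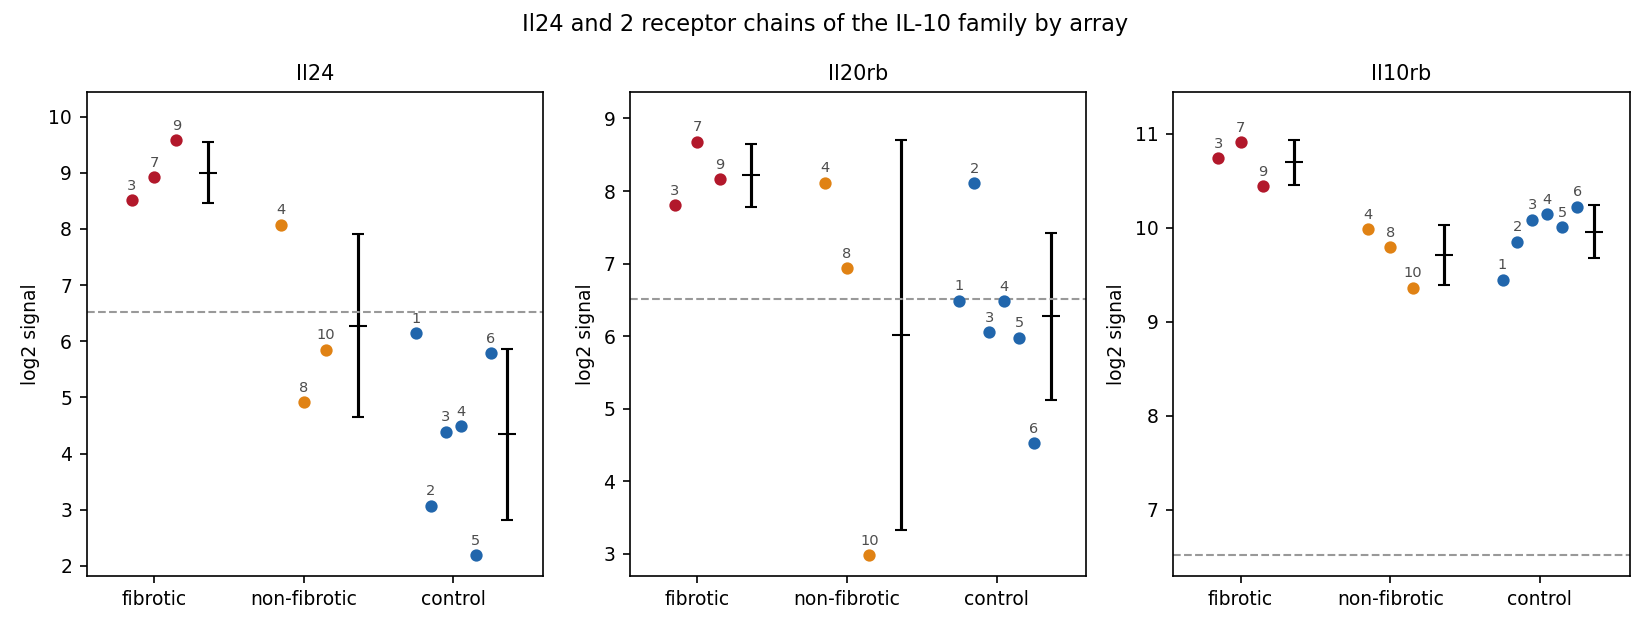
Log2 signals of Il24, Il20rb and Il10rb on each array (points, numbered by replicate) in fibrotic, non-fibrotic and control bronchi, with mean and SD beside each group and the background level of 6.52 as a dashed line. All 3 fibrotic arrays of Il24 lie above background and all 6 controls under it.

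Of the type 2 receptor chains, 0 of 4 were called in any contrast, including at an adjusted p under 0.05, and 0 of 4 had an unadjusted p under 0.05. With 9.39%, 0.522% and 3.82% of all probe sets called in the 3 contrasts at 0.01, nothing is read from a count of 0 among 4 genes. Il4r, the chain shared by the receptors of IL-4 and IL-13, lay above background on all arrays. Its log2 signals were 9.56, 9.75 and 9.61 in fibrotic bronchi and 9.13, 9.27 and 9.42 in non-fibrotic bronchi, and in controls the lowest was 8.95, the median 9.28 and the highest 9.50. Fibrotic arrays lay above all others by a narrow margin, with a log2 difference from controls of 0.39 (interval -0.11 to 0.89, adjusted p = 0.273) and from non-fibrotic bronchi of 0.37 (interval -0.21 to 0.94, adjusted p = 0.461). These intervals reach no further than a log2 of 0.94, so a larger rise of Il4r lies outside them. Non-fibrotic bronchi and controls differed by 0.02 (interval -0.47 to 0.52).

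Il13ra2, the decoy receptor of IL-13, had log2 signals of 7.90, 5.88 and 7.94 in fibrotic bronchi and 6.15, 5.96 and 5.76 in non-fibrotic bronchi, and in controls the lowest was 5.81, the median 6.41 and the highest 7.35. Fibrotic replicates 3 and 9 were the highest of the 12 arrays and replicate 7 lay within the range of the controls. The log2 difference was 0.79 against controls (interval -0.39 to 1.96, adjusted p = 0.354) and 1.28 against non-fibrotic bronchi (interval -0.07 to 2.64, adjusted p = 0.245). Il5ra, the IL-5 receptor chain of eosinophils, lay under background on all arrays, at 3.03 to 5.88 in fibrotic bronchi, 4.63 to 4.82 in non-fibrotic bronchi and 2.80 to 4.17 in controls. Il9r, the receptor of IL-9, passed background only in non-fibrotic replicate 10, at 6.89, and its log2 difference between fibrotic bronchi and controls was 0.49 (interval -0.73 to 1.71). The ligands Il4, Il5 and Il13 were under background on all arrays, so no fold is given for them. The 3 eosinophil markers measured (Prg2, Epx and Ccr3) had mean log2 signals of 2.53 to 5.42 in fibrotic bronchi, 3.07 to 4.58 in non-fibrotic bronchi and 3.28 to 5.83 in controls. Ccr3 was under background on all arrays, and Prg2 and Epx passed it on some non-fibrotic and control arrays and on no fibrotic array.

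**Figure D4:**
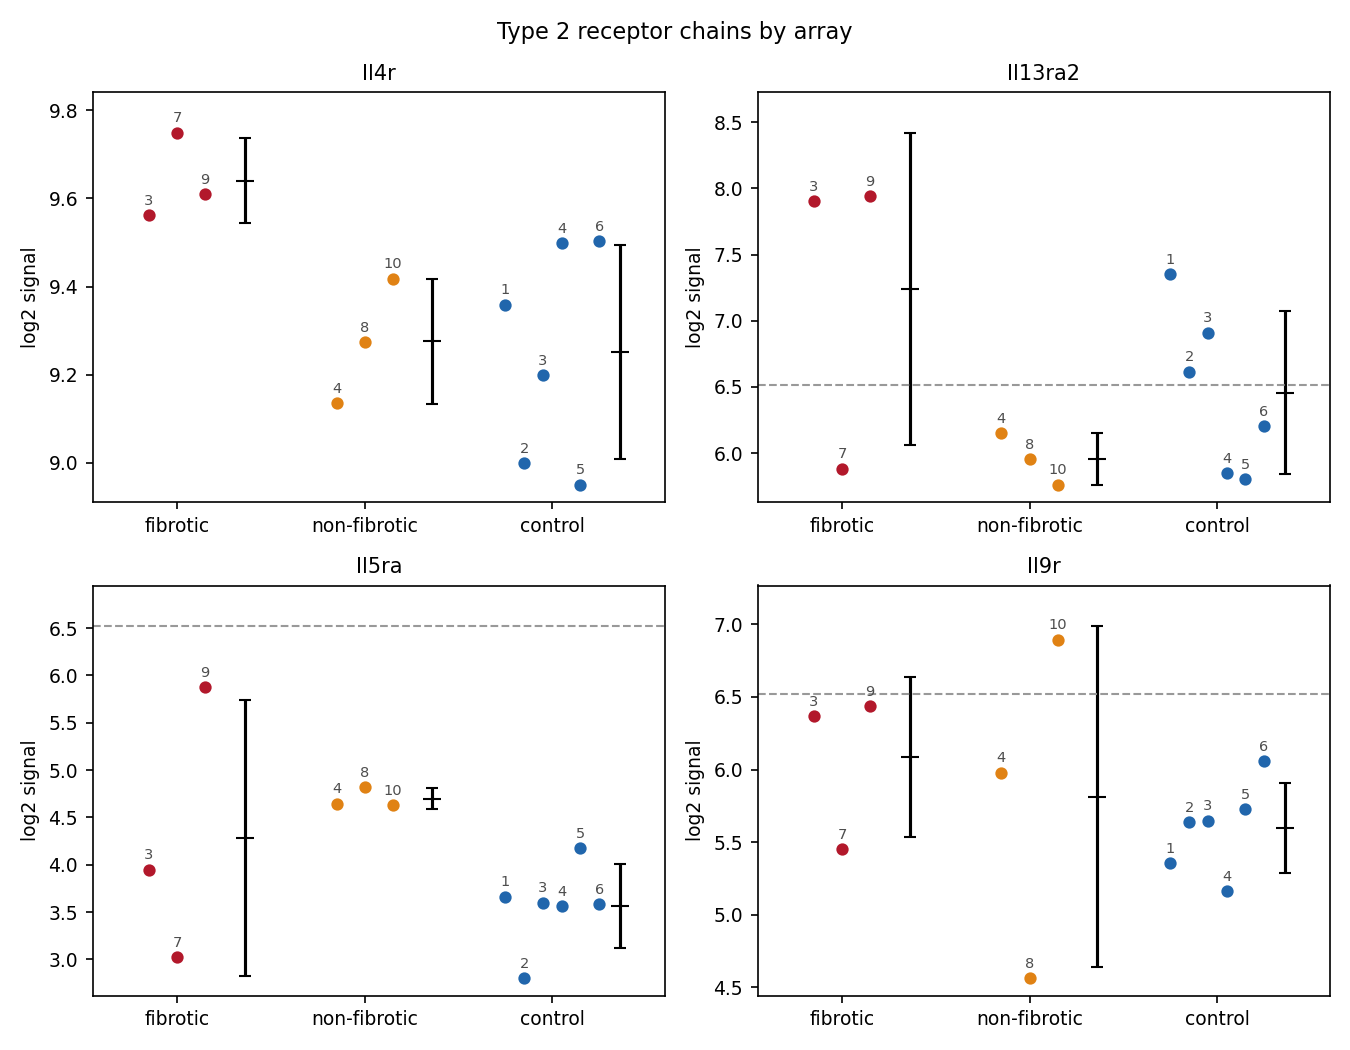
Log2 signals of the type 2 receptor chains Il4r, Il13ra2, Il5ra and Il9r on each array (points, numbered by replicate) in fibrotic, non-fibrotic and control bronchi, with mean and SD beside each group and, except for Il4r, the background level of 6.52 as a dashed line. Il4r differs by less than a log2 of 1 between any 2 arrays, and Il5ra is under background on all 12.

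Genes of the type 2 response in airways, targets of IL-4 and IL-13 among them, did not move one way. Of 18 such genes, 3 rose and 2 fell in fibrotic bronchi against controls (27.8%, against 9.39% of all probe sets), with a median log2 fold change of 1.42. The matrix protein gene Postn rose to 12.69 ± 1.06 in fibrotic bronchi, against 8.79 ± 0.83 in controls (log2 3.90, adjusted p = 0.00028). The chemokine gene Ccl22 was at least 2.13-fold higher, since all controls lay under background (adjusted p = 0.00758), and Crlf2, a receptor chain for TSLP, was 3.05-fold higher (log2 1.61, adjusted p = 0.00368). Spdef, the goblet cell regulator, was under background in all fibrotic arrays and at least 4.94-fold lower than in controls (adjusted p = 3.7e-05). The chitinase gene Chia averaged 8.64 ± 2.76 in fibrotic bronchi and 12.45 ± 1.29 in controls (log2 -3.81, adjusted p = 0.00663). The genes that fell are made by airway epithelium, and Postn is also made by fibroblasts. All 3 club cell markers fell with Spdef and Chia, while 6.4% of all probe sets fell. Mean log2 signals of the club cell markers were 6.28 to 8.02 in fibrotic bronchi and 12.46 to 14.45 in controls. Of 5 fibroblast markers, 2 rose with Postn, while 2.99% of all probe sets rose. The part of these cells was not tested. No gene of this list was called between non-fibrotic bronchi and controls.

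Il2rg and the brighter probe set of Il10ra had their widest spread among the non-fibrotic arrays. Il2rg, the common gamma chain of the receptors for IL-2, IL-4, IL-7, IL-9, IL-15 and IL-21, had log2 signals of 11.52, 11.57 and 11.87 in fibrotic bronchi and 10.23, 2.35 and 8.35 in non-fibrotic bronchi. In controls the lowest was 7.79, the median 9.74 and the highest 11.08. Fibrotic arrays lay above all others, and the non-fibrotic arrays covered a wider range than the controls. The log2 difference between fibrotic and non-fibrotic bronchi was 4.68 (interval 1.84 to 7.51, adjusted p = 0.0369), not called, and it was 2.36 with an adjusted p of 0.085 without non-fibrotic replicate 8. Against controls it was 1.84 (interval -0.61 to 4.30, adjusted p = 0.294), and against controls 1 and 2 alone it was 0.64. Il10ra, the ligand-binding chain of the IL-10 receptor, had log2 signals of 9.74, 9.51 and 9.05 in fibrotic bronchi and 7.99, 2.37 and 5.81 in non-fibrotic bronchi, and in controls the lowest was 6.61, the median 7.91 and the highest 8.01. The order of the non-fibrotic arrays was that of Il2rg, and the log2 difference of 4.05 between fibrotic and non-fibrotic bronchi had an adjusted p of 0.0126, just short of a call. It was 2.54 (0.0218) without non-fibrotic replicate 8, 5.35 (0.00048) without non-fibrotic replicate 4, and 2.43 with arrays under background set to that level, as non-fibrotic replicates 8 and 10 were. It was called with quantile normalization (adjusted p = 0.00808) and with a pseudocount of 16 (adjusted p = 0.0055). Against controls it was 1.75 (adjusted p = 0.152).

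A second, dimmer probe set of Il10ra gave a call that the brighter one did not. It had log2 signals of 6.61, 8.79 and 6.03 in fibrotic bronchi, 6.74, 5.75 and 6.70 in non-fibrotic bronchi and 0.95 to 4.41 in controls. Fibrotic bronchi were at least 1.54-fold higher than controls by this set (fitted log2 3.46, adjusted p = 0.00861), and the difference from non-fibrotic bronchi was 0.75 with an interval of -1.29 to 2.79. With arrays under background set to that level, these differences were 0.79 and 0.65. The probe sets had opposite signs between non-fibrotic bronchi and controls, at a log2 of -2.30 (adjusted p = 0.092) by the brighter and 2.71 (adjusted p = 0.0618) by the dimmer, so no direction is given for Il10ra there.

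T cell markers moved with these receptors, and they were not the only leukocyte markers to do so. The mean log2 signal of 8 T cell markers was 9.31, 8.73 and 9.26 in fibrotic bronchi and 8.25, 5.96 and 5.97 in non-fibrotic bronchi, and it was 8.91, 8.28, 7.55, 7.39, 5.12 and 7.42 in controls 1 to 6. The non-fibrotic arrays 8 and 10 and control 5 were the lowest in T cell markers and in Il2rg. These arrays were also the lowest in 4 B and plasma cell markers (means of 6.23, 5.89 and 4.93) and in 4 neutrophil markers (5.23, 6.68 and 6.36). In macrophage, eosinophil, mast cell and natural killer cell markers they were not the lowest as a set. None of the 8 markers was called in any contrast, and nothing is read from this, with 9.39%, 0.522% and 3.82% of all probe sets called. At an adjusted p under 0.05, 2 of 8 were higher in fibrotic bronchi than in controls (25%, against 17.9% of all probe sets called). Against non-fibrotic bronchi 1 of 8 was (12.5%, against 9.57%). All 8 had a positive fold change between fibrotic bronchi and controls, as had 54.4% of all probe sets. The T cell gene Cd3e averaged 9.20 in fibrotic bronchi, 6.07 in non-fibrotic bronchi and 7.40 in controls. The part of leukocyte content in the levels of these receptors was not tested. Il2rb, a chain of the IL-2 and IL-15 receptors, averaged 8.78 ± 0.46 in fibrotic bronchi, 7.19 ± 1.25 in non-fibrotic bronchi and 7.17 ± 0.64 in controls (log2 1.62 against controls, adjusted p = 0.0424). Il2ra, which completes the IL-2 receptor, averaged 7.12 ± 0.30 in fibrotic bronchi and 5.49 ± 0.64 in controls, which were all under background, so that the difference is bounded at 1.52-fold or more (adjusted p = 0.0728, not called). Il7r, the IL-7 receptor chain, averaged 9.64 ± 0.58 in fibrotic bronchi and 8.65 ± 0.74 in controls (adjusted p = 0.107, not called).

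**Figure D5:**
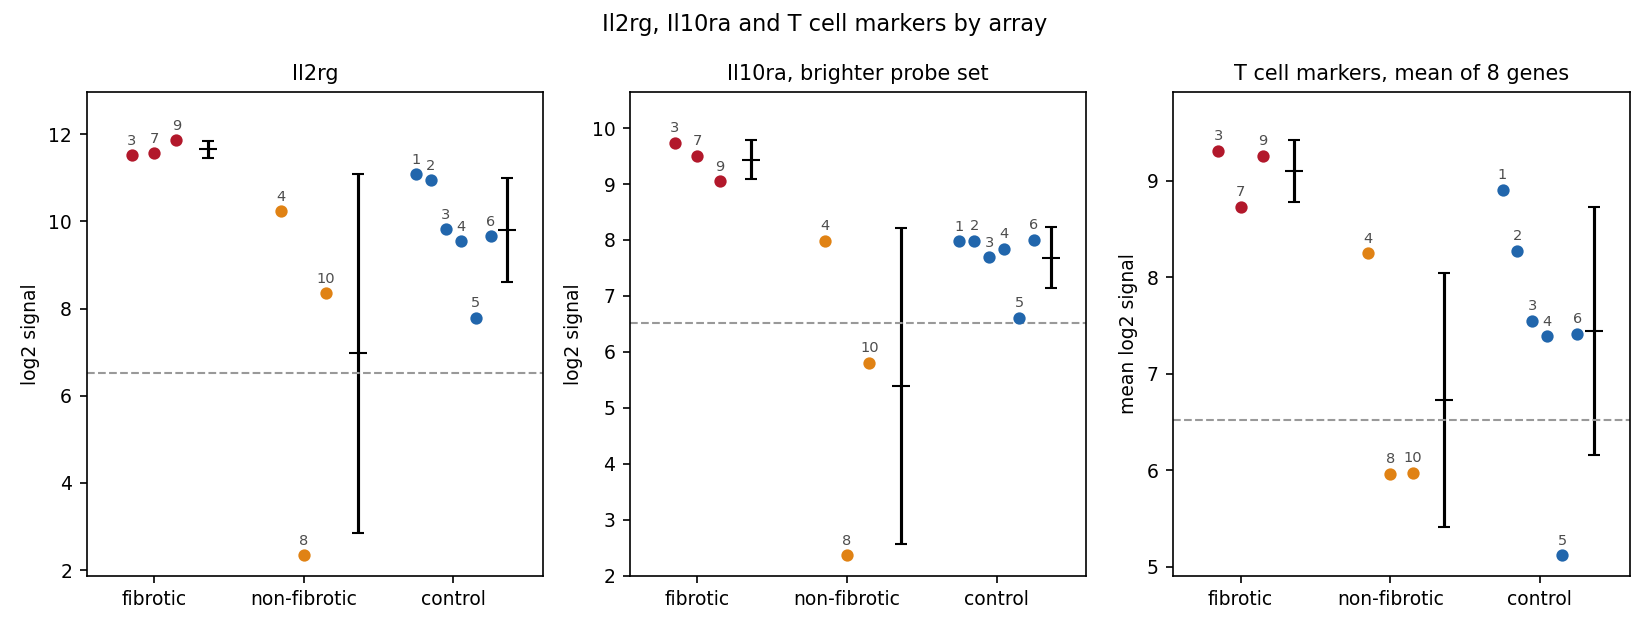
Log2 signals of Il2rg and the brighter Il10ra probe set, and the mean log2 signal of 8 T cell markers, on each array (points, numbered by replicate) in fibrotic, non-fibrotic and control bronchi, with mean and SD beside each group and the background level of 6.52 as a dashed line. Non-fibrotic replicates 8 and 10 are the lowest exposed arrays in each panel.

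Il7, the survival cytokine of lymphocytes, was the gene that came nearest to a call in non-fibrotic bronchi. Its log2 signals were 7.26, 8.23 and 8.06 in fibrotic bronchi and 8.67, 10.40 and 8.57 in non-fibrotic bronchi, and in controls the lowest was 7.03, the median 7.67 and the highest 8.30. All non-fibrotic arrays lay above all others, and replicate 8, the array with the lowest Il2rg, was the highest. The log2 difference was 1.56 against controls (adjusted p = 0.0481), and it was 0.53 with an interval of -0.68 to 1.73 by a second, dimmer probe set. Il34, an alternative ligand of the macrophage receptor CSF1R, was not called, with log2 signals of 7.66, 7.33 and 8.70 in fibrotic bronchi against 6.61, 6.07 and 4.31 in non-fibrotic bronchi (log2 2.23, adjusted p = 0.0443). Of these non-fibrotic arrays 2 were under background, and with them set to that level the difference was 1.35. Fibrotic arrays overlapped the controls, which lay between 5.90 and 7.75. Il36rn, the antagonist of IL-36, passed background only in non-fibrotic replicate 10, at 6.94, and averaged 4.74 ± 0.34 in fibrotic bronchi, 6.42 ± 0.45 in non-fibrotic bronchi and 4.84 ± 0.42 in controls (log2 1.58 for non-fibrotic bronchi against controls, adjusted p = 0.0861).

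The remaining families held no call. Of the IL-12 family, Il12b, the p40 chain shared by IL-12 and IL-23, averaged 6.57 ± 0.62 in fibrotic bronchi, 7.14 ± 0.70 in non-fibrotic bronchi and 5.77 ± 0.45 in controls, with every control under background. Il23a, the other chain of IL-23, passed background only in non-fibrotic replicate 10, at 6.63, and Il3, a growth factor of basophils and mast cells, only in non-fibrotic replicate 4, at 7.42. Il3ra, the IL-3 receptor chain, was above background throughout and averaged 8.30 ± 0.49 in fibrotic bronchi, 8.91 ± 0.47 in non-fibrotic bronchi and 7.89 ± 0.42 in controls (log2 1.02 for non-fibrotic bronchi against controls, adjusted p = 0.0886). Il18bp, the soluble inhibitor of IL-18, averaged 8.34 ± 0.23 in fibrotic bronchi, 7.71 ± 0.52 in non-fibrotic bronchi and 8.65 ± 0.23 in controls (log2 -0.93 for non-fibrotic bronchi against controls, adjusted p = 0.077). Il12a, the p35 chain of IL-12, averaged 4.18 in fibrotic bronchi, 4.60 in non-fibrotic bronchi and 4.75 in controls, and Il1rl2, the IL-36 receptor, averaged 6.05 in fibrotic bronchi, 4.65 in non-fibrotic bronchi and 5.69 in controls, with adjusted p-values of 0.514 or more in every contrast. Il15, Il16, Il27ra and Il11ra1 differed from controls by fitted log2 values between 0.09 and 1.02 in fibrotic bronchi, with adjusted p-values of 0.184 or more.

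The genes that carry signals from these receptors were counted in a list of 19 JAKs, STATs and their inhibitors. None was called between fibrotic bronchi and controls by limma, against 9.39% of all probe sets. An unadjusted p under 0.05 was found for 6 of 19, near the share of all probe sets (9891 of 31042). A positive fold change was found for 17 of 19 (89.5%, against 54.4% of all probe sets). The median log2 fold change was 0.62, against 0.10 for all probe sets. In non-fibrotic bronchi against controls 1 was called (5.26%, against 0.522% of all probe sets), Pias1, which was higher (log2 1.26, adjusted p = 0.00842). There 13 of 19 had a negative fold change and 31.6% a positive one, against 54.2% of all probe sets with a positive one. The median was -0.19, against 0.09 for all probe sets. Between fibrotic and non-fibrotic bronchi 2 were higher (10.5%, against 3.82% of all probe sets), the kinase Jak2 (log2 1.85, adjusted p = 0.00294) and the inhibitor Socs5 (log2 1.78, adjusted p = 0.00338). Stat6, the transcription factor of IL-4 and IL-13 signaling, averaged 8.84 in fibrotic bronchi, 9.21 in non-fibrotic bronchi and 8.84 in controls.

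Of 17 other genes of the class I and II receptor families, among them the ligand gene Tslp and the secreted subunit gene Ebi3, 4 rose and 2 fell in fibrotic bronchi against controls, or 35.3% against 9.39% of all probe sets. The 4 were Crlf2 and the interferon receptor chains Ifnar1 (log2 1.88, adjusted p = 0.00015), Ifnar2 (log2 1.30, adjusted p = 0.00109) and Ifngr1 (log2 1.03, adjusted p = 0.00983). Those that fell were Lifr, the receptor of leukemia inhibitory factor (log2 -2.49, adjusted p = 0.00038), and the leptin receptor Lepr, at least 2.22-fold lower (adjusted p = 0.00505). Ifnar1 and Ifngr1 were also higher and Lifr lower in fibrotic than in non-fibrotic bronchi, and none of the 17 was called between non-fibrotic bronchi and controls.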

How the data were processed

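Bronchial wall of 12 specimens was measured on one array each. The deposited intensity is a linear MAS5 signal per probe set, which the authors had scaled to a trimmed mean of about 500 on every array; a version of MAS5 is not given in the sources used here. Leaving out 57 array controls, 31042 probe sets were tested without a filter. The array's annotation gave 1 symbol for 20826 of them, several for 436 (assigned to no gene, among them 2 with Il13ra1) and none for 9780. The probe set with the highest mean log2 signal stood for a gene; Il7, Il7r, Il10ra and Il17re have more than 1. All 38 genes matched RefSeq by gene ID.

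A model of the 3 groups was fitted to log2 signals, with no pseudocount, in limma 3.58.1 and R 4.3.3 (eBayes with an intensity trend, Benjamini-Hochberg adjustment over all tested probe sets in each contrast), after a test on simulated data. A lower bound on a fold sets a group at the background level where all its arrays were under it. The other group's mean is taken as measured. Named by rule were genes called, the IL-17, type 2 and IL-10 family receptors, Il24, Il2rg and the 3 largest rises and falls per contrast among genes not called; other genes were named after their values were seen. Genes and lists were chosen with earlier results of these data known. Alternatives changed the threshold, filter, pseudocount, normalization, variance model, controls, probe set and arrays. No depth applies to arrays; their number limits the precision.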

Additional observations from a re-analysis of the deposited data

Results flagged for a closer look

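Between fibrotic and non-fibrotic bronchi, 2 of the 38 genes differed at an adjusted p under 0.01 (5.26%, against 3.82% of all probe sets and 5.30% of all genes). Il17ra was higher by a log2 of 1.52 (adjusted p = 0.00731; 3 of 3 fibrotic arrays above all non-fibrotic arrays), and Il17re was lower, with a log2 difference of -1.73 (adjusted p = 0.00187; 3 of 3 fibrotic arrays under all non-fibrotic arrays), by its brighter probe set. The dimmer set gave -0.20 (adjusted p = 0.884).

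Among 18 sets of 6 control values examined for a far array, 2 held one, and chance gives about 1 in 20. Il10ra was 6.61 in control 5, far under the other controls, with a gap of 0.773 of the whole range. Control 5 also had the lowest T cell marker mean, 5.12. Il17rc was 3.82 in control 1, with a gap of 0.777 of the range, and without this array the difference of fibrotic bronchi from controls was -2.90 (adjusted p = 0.00307). With controls 1 and 2 only it was -1.23 (adjusted p = 0.651). All fibrotic arrays of Il17rc were under background, and with arrays under it set to that level the difference from all controls was -0.30.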

How the results depend on the processing

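No paired analysis was possible because no 2 groups share 2 replicate numbers and labels do not tie specimens to rats. The count of genes called between fibrotic bronchi and controls, 2, was 7 at an adjusted p under 0.05, 0 without moderated variances, 0 with the form of the label as a fixed block and 0 with controls 1 and 2 only, and leaving out one array at a time gave 1 to 3. Between non-fibrotic bronchi and controls the count of 0 was 1 at an adjusted p under 0.05, and leaving out one array gave 0 to 1 (Il10ra without non-fibrotic replicate 4). Between fibrotic and non-fibrotic bronchi the count of 2 was 7 at an adjusted p under 0.05, 0 without an intensity trend, 0 with array quality weights, 0 with the arrays of both groups only, 1 without moderated variances, 1 with controls 1 and 2 only, 1 with the mean of probe sets, and 0 to 4 leaving out one array. The cause was not tested, beyond the smaller number of arrays in some of these fits. With the dimmest 40% of probe sets dropped, Il24 was among those removed, and the 2 calls against controls were Il17ra and Il17re. Adjusted p-values over the alternatives ran from 9.8e-05 to 0.08 for Il17ra and from 0.00033 to 0.0362 for Il24 against controls, and from 0.00148 to 0.0434 for Il17ra and from 0.00128 to 0.884 for Il17re against non-fibrotic bronchi. Of 1326 alternative values of 54 fold changes, 26 lost a call, 12 gained one and 0 called values changed sign. The sign turned in 52 values that were not called. Levels under background limit what can be said of Il17rc, Il5ra, Il9r and the type 2 ligands.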
